A study of Mus musculus with 12 samples.

Results

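Foxj1, Rfx1, Rfx2, Rfx3 and Rfx7 are 5 transcription factor genes grouped for their ties to ciliary gene control. They were found by Entrez ID in a table of 27179 genes, and all 5 passed the filter on low values that left 13939 genes for testing. The genes were chosen with their measured levels in the same libraries in view, so their values are given below as a description, without p-values. RNA was sequenced from mIMCD3 cells, an established mouse line derived from kidney inner medullary collecting duct. The 4 groups of 3 libraries were control cells (genotype given as wild type, line Control 1), Actr3 KO-1 cells, Actr3-Ift88 dKO cells, and Actr3 KO-1 cells given 0.5 µM ciliobrevin D. All 4 groups were grown to confluence for 48 hours and then starved of serum (FCS) for 24 hours, with the compound or its solvent in the starvation medium. Each knockout genotype is represented by 1 line, so an effect of the genotype and a trait of that line cannot be told apart. Ciliobrevin D was given only to Actr3 KO-1 cells. One control library is named in the table by a control line number that no sample title carries, so it could come from another control line. It is the second value wherever 3 control values are listed.

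Actr3 encodes a subunit of the Arp2/3 complex, which nucleates branched actin. Ift88 encodes a subunit of the intraflagellar transport B complex, on which ciliary assembly depends, and ciliobrevin D is an inhibitor of cytoplasmic dynein, the motor of retrograde transport in cilia and along microtubules. FOXJ1 is a forkhead factor known as the master regulator of motile cilia. RFX factors bind the X-box, an imperfect inverted repeat in the promoters of many ciliary genes, through a winged helix domain; RFX2 and RFX3 are known for roles in ciliated tissues, often beside FOXJ1. RFX1 is broadly expressed, and RFX7 is known for targets linked to growth restraint and p53. Collecting duct principal cells carry a single primary cilium, which is not motile.

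The letters that RFX factors are known to recognise are shown first, because 11 ciliary assembly genes carry a full X-box near their start and none of the 4 members with a promoter sequence does. The sequences are from RefSeq GRCm38.p6 windows of 250 bases before to 50 bases after a transcript start of each gene, read 5′ to 3′ on the strand that holds the match. The X-box was searched on both strands as GTNNCC, any 3 bases and then GNAAC, with N for any base. Capitals mark the match.
Bbs1: tcccaggcGTCGCCTTGGCAACcagctcag
Bbs7: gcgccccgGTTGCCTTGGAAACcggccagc
Mks1: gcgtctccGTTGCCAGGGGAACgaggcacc
Tctn1: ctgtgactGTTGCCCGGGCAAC
Tctn2: gaggaccaGTAGCCATGGTAACctccaatc
Tmem216: catgttcaGTCCCCATGGAAACtgcgtaca
Bbs4: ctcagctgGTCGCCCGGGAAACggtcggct
The genes above fell with ciliobrevin D and encode parts of the BBSome (Bbs1, Bbs4, Bbs7) or of the ciliary transition zone (the others). The sites lie at chr19:4906613-4906626 for Bbs1, chr3:36613497-36613510 for Bbs7, chr11:87853191-87853204 for Mks1, chr5:122264411-122264424 for Tctn1, chr5:124598687-124598700 for Tctn2, chr19:10555731-10555744 for Tmem216 and chr9:59353472-59353485 for Bbs4. Nphp4, of the transition zone, rose, and its site is as follows.
Nphp4: cggtgcccGTCTCCTAGGTAACgcgccagc
The other 3 assembly genes with an X-box, Ift22, Ift57 and B9d2, did not pass the test in that comparison.

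An X-box was in 714 of 32851 windows (2.17%), and in 673 of the 27025 genes with a window (2.49%). It was in the windows of 11 of 38 ciliary assembly genes and of 11 of 53 motile cilium genes, and in none of the windows of 18 RFX7 target genes. The shorter letters GTTGCC, which form the left arm of many X-boxes and so overlap them, were in 4111 windows (12.5%). By gene, they were in 14.1% of all genes with a window and in 21 of the 38 assembly genes. Among the members, the windows of Rfx1, Rfx2 and Rfx3 held GTTGCC, and the window of Rfx7 did not. These 3 matches are printed because they lie in the members' own windows.
Rfx1: tgggtagcaacaGTTGCCccggtgagggaa
Rfx2: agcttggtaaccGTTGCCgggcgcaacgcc
Rfx3: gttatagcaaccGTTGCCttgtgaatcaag
They lie at chr8:84066837-84066842 for Rfx1, chr17:56831119-56831124 for Rfx2 and chr19:28011130-28011135 for Rfx3. Counted from the transcript start that each window is built on, they are 1 base after it, 116 bases before it and 31 bases after it. The windows of Rfx1 and Rfx3 lie inside the gene spans given below, so their transcript starts are not the outer ends of those spans. The forkhead letters GTAAACA were in 3.65% of windows and in 4.05% of genes with a window. They were in none of the 4 members and in none of the 38 assembly genes. A match is a description of letters in these windows, not a binding site.

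Libraries held 28902562 to 38077987 reads. Actr3 checked the labels: its normalized count was 8336 ± 293 in control cells (SD, n = 3, as for all values with an SD), 1218 ± 111 in Actr3 KO and 871 ± 38.6 in dKO, and treated Actr3 KO cells held 1574 ± 180. Ift88 was at 617 ± 34.2 in Actr3 KO and 604 ± 29.8 in dKO, and a count over the whole gene does not check a short edit. The cells were checked against 18 kidney epithelial and collecting duct markers: 10, among them Krt8, Epcam, Cdh16 and Pax8, were above 1000 in all 12 libraries, whereas Aqp2, the vasopressin-regulated water channel of principal cells, had at most 1.86 in any library. Of 13 markers of other cell types, Lrp2, an endocytic receptor of proximal tubule, was at 5905 to 15235 in the group means. Slc34a1, the proximal tubule phosphate transporter, had no reads.

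Foxj1 was the member that stood apart with ciliobrevin D. The Foxj1 gene (Entrez 15223) lies at chr11:116330704-116335499 in GRCm38. Its normalized count, meaning reads divided by a library size factor, was 2276, 2599 and 2434 in the control libraries. It was 2212, 2174 and 2117 in Actr3 KO and 2336, 2385 and 2247 in dKO. With ciliobrevin D it was 869, 609 and 555 in replicates 1 to 3. All 3 treated libraries lay below every one of the other 9, and the highest of them was replicate 1. In bulk RNA, fewer cells with a transcript and less transcript per cell cannot be told apart.

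The mean of Foxj1 was 678 ± 168 with ciliobrevin D against 2167 ± 47.8 in untreated Actr3 KO, 3.20-fold lower. On the log2(value + 1) scale used for all fold changes, the difference was -1.70 with a standard error of 0.10. Only 0.581% of the tested genes had a lower value in this comparison, in which 3.57% were at or below -1. Without treated replicate 1 the Foxj1 difference was -1.90, and without treated replicate 3 it was -1.57. The spread of Foxj1 was also wider among the treated libraries, with a coefficient of variation of 24.8% against 2.21% in Actr3 KO.

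Between the untreated lines Foxj1 moved little. The Actr3 KO mean was lower than the control mean of 2436 ± 161 by 0.17 ± 0.10 (SE) on the log2 scale, and the groups did not overlap. In dKO the Foxj1 mean was 2323 ± 70.1, a log2 difference of 0.10 from Actr3 KO, and again the libraries did not overlap. Against control the dKO value differed by -0.07 and the groups overlapped. Without the unnumbered control library, the Foxj1 differences from control were -0.12 in Actr3 KO and -0.02 in dKO.

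**Figure D1:**
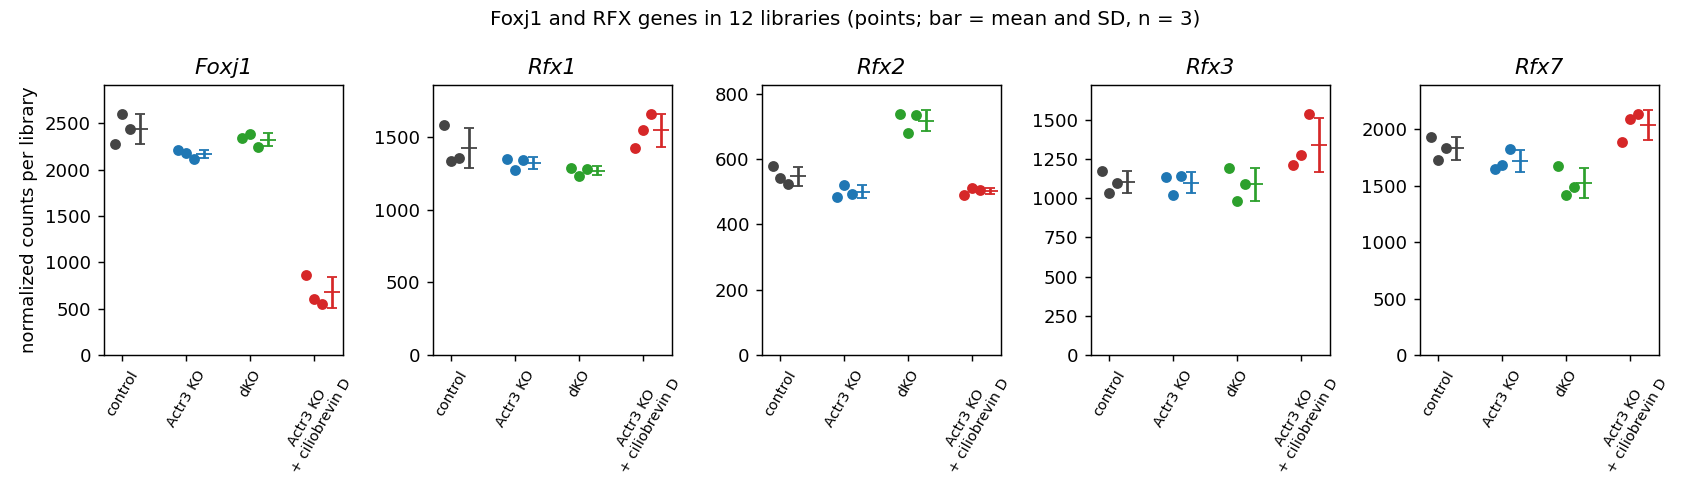
Normalized count (vertical axis, linear from 0) of Foxj1, Rfx1, Rfx2, Rfx3 and Rfx7 in control, Actr3 KO, dKO and ciliobrevin D-treated Actr3 KO cells. Points are libraries in replicate order, with the unnumbered control library second, and bars give mean and SD (n = 3); the treated Foxj1 points sit between 555 and 869 while all the others are at 2117 or above.

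Rfx2, the RFX factor most tied to multiciliated and sperm cells, was the member that stood apart in dKO. The gene (Entrez 19725) lies at chr17:56775897-56831008. Its normalized count was 738, 679.8 and 735 in dKO, against 485, 522 and 493 in Actr3 KO. It was 579, 542 and 522 in control, and 491, 511 and 504 with ciliobrevin D. The 3 dKO libraries were the highest of the 12, and the treated and untreated Actr3 KO libraries overlapped.

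The dKO mean of Rfx2, 718 ± 32.8, was 1.44-fold the Actr3 KO mean of 499.9 ± 19.6, a log2 difference of 0.52 ± 0.07 (SE). Among the tested genes 86.1% had a lower value than Rfx2 in this comparison. The difference of dKO from control was 0.39, and 0.38 without the unnumbered control library. Actr3 KO was lower than control by 0.13 and did not overlap it, but the nearest libraries were at 521.9 and 522.4. Tested genes of chromosome 17 had a median log2 difference of 0.11 in Actr3 KO and 0.16 in dKO against control. With the median of each chromosome taken off, Rfx2 differed from control by -0.25 in Actr3 KO and 0.25 in dKO. The log2 difference of Rfx2 between treated and untreated Actr3 KO was 0.01 ± 0.07.

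Rfx3, which is required for nodal and ependymal cilia in the mouse, was level across the untreated lines. The gene (Entrez 19726) lies at chr19:27761721-28014669. Its normalized count was 1175, 1032 and 1099 in control, 1133, 1021 and 1143 in Actr3 KO, and 1192.5, 979 and 1092 in dKO. These 9 libraries overlapped across all 3 groups, and the log2 differences between group means lay between -0.02 and 0.00. With ciliobrevin D the Rfx3 values were 1213, 1273 and 1536, all above the untreated libraries, and the log2 difference from untreated Actr3 KO was 0.28 ± 0.08 (SE). Replicate 3 held the highest of the treated values, and without it the difference was 0.18. Of the tested genes 71.7% had a lower value than Rfx3 in this comparison, with all libraries.

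Rfx1 and Rfx7 were higher in treated than in untreated Actr3 KO, and lower in dKO than in control. The Rfx1 gene (Entrez 19724) lies at chr8:84063564-84097001. Rfx1 stood at 1426, 1549 and 1658 in treated cells against 1349.6, 1272 and 1338 in untreated Actr3 KO, a log2 difference of 0.22 ± 0.07 (SE). Of the tested genes 67.95% had a lower value than Rfx1 in this comparison. In control cells Rfx1 was at 1582, 1331 and 1356, and in dKO at 1287, 1232 and 1282.5. The dKO libraries of Rfx1 did not overlap control (log2 difference -0.16) but overlapped Actr3 KO (-0.06 ± 0.07, SE). With 1 library left out, the Rfx1 difference of dKO from control ran from -0.21 to -0.08. The control and treated groups of Rfx1 overlapped because of control replicate 1.

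The Rfx7 gene (Entrez 319758) lies at chr9:72532169-72622949. Its values were 1883, 2086 and 2136 with ciliobrevin D and 1646, 1682 and 1828 in untreated Actr3 KO, a log2 difference of 0.24 ± 0.07 (SE). Of the tested genes 69.1% had a lower value than Rfx7 in this comparison. In dKO Rfx7 was at 1670.3, 1418 and 1488, all below the control values of 1933, 1731 and 1833, with a log2 difference of -0.27 ± 0.07. The dKO and Actr3 KO groups of Rfx7 overlapped. In the GENCODE annotation 42 of 6431 exonic bases of Rfx1 overlap an antisense gene, and 597 and 417 of 15302 exonic bases of Rfx7 overlap a pair of antisense genes. The sources used here do not say whether reads were counted by strand, so reads of these stretches could come from either gene.

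**Figure D2:**
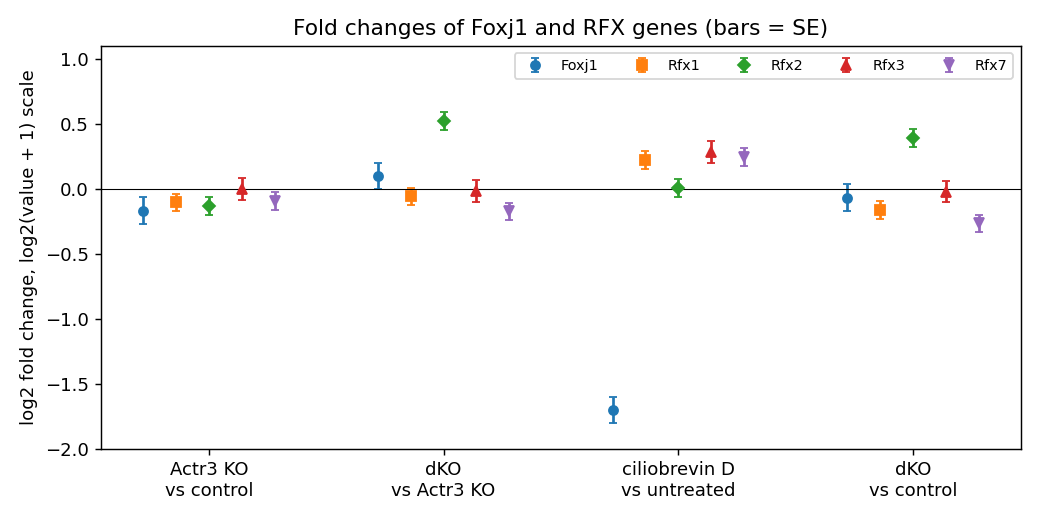
Log2 difference (vertical axis, log2(value + 1) scale) of the 5 genes in the 4 comparisons, with bars for the standard error. Foxj1 is at -1.70 with ciliobrevin D, Rfx2 is at 0.52 in dKO against Actr3 KO, and the other points lie between -0.27 and 0.39.

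Counted over the members, the libraries of 4 of 5 did not overlap between treated and untreated Actr3 KO (1 lower, 3 higher), where 68.1% of all tested genes did not overlap (33.9% lower, 34.3% higher). The count was 2 of 5 in Actr3 KO against control, both lower (of tested genes 73.3% did not overlap, 37.2% lower and 36.0% higher). It was 2 of 5 in dKO against Actr3 KO, both higher (71.2%, with 35.5% higher and 35.7% lower). In dKO against control it was 3 of 5, with 2 lower and 1 higher (72.0%, with 37.1% lower and 34.9% higher). These shares are given as background only, since the members were chosen on these contrasts. The comparisons share libraries: both dKO and treated cells were set against the same Actr3 KO libraries, and control served in 2 comparisons. The median log2 difference of all tested genes was between -0.02 and 0.00 in each comparison.

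Levels were compared between genes only per kilobase of exon. In control cells Foxj1 stood at 929 ± 61.5 normalized counts per kilobase, Rfx1 at 221 ± 21.5, Rfx7 at 119.7 ± 6.60, Rfx3 at 99.9 ± 6.49 and Rfx2 at 74.9 ± 3.95. Foxj1 was thus above the RFX genes and above 84.9% of the 12657 tested genes with a length. With ciliobrevin D Foxj1 was at 258 ± 64.0 per kilobase, above 52.4% of those genes and within its spread of Rfx1, at 240.2 ± 18.1. In dKO the per-kilobase levels of Rfx7, Rfx3 and Rfx2, at 99.7, 98.6 and 98.2, lay within their spread of one another.

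**Figure D3:**
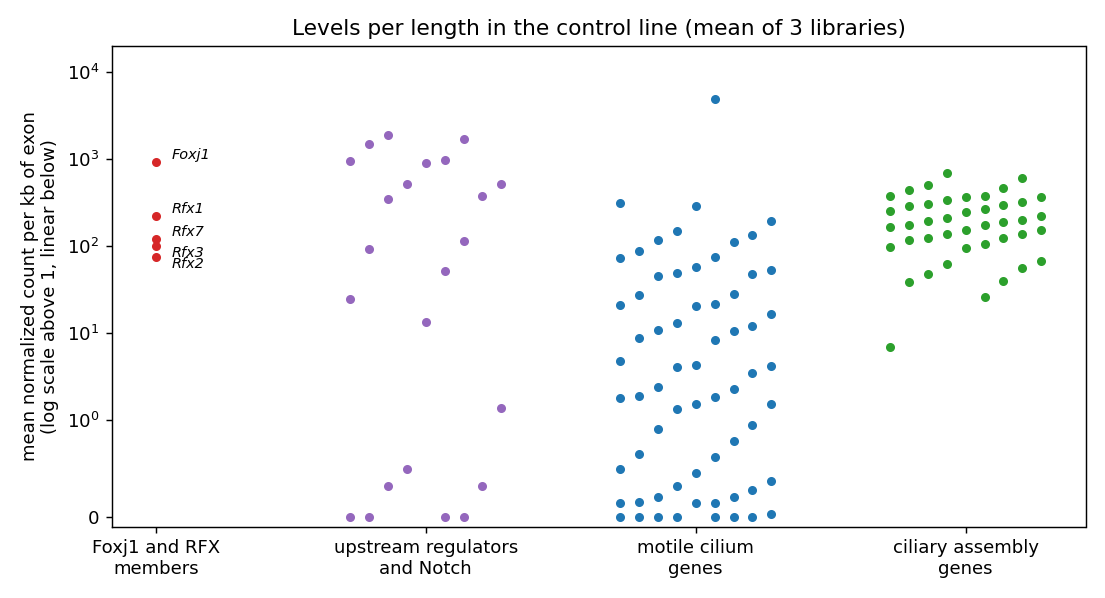
Mean normalized count per kilobase of exon in the 3 control libraries (vertical axis, log scale above 1 and linear below) for the 5 members and for genes of 3 lists, each point a gene. Foxj1, at 929, is above all ciliary assembly genes and above every motile cilium gene except Tubb4b. Of the 23 upstream and Notch genes, 5 are at or above Foxj1 (Gmnn, E2f4, Tfdp1, Notch2 and Jag1).

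Of 9 RFX and FOXJ relatives and partners, Rfx4, Rfx6 and Rfx8 had at most 7 reads in any group and were not tested. Of the other 6, 2 rose and 2 fell in Actr3 KO against control (of all tested genes 34.4% rose and 35.4% fell). In dKO 1 rose and 3 fell against Actr3 KO (32.5% and 33.2% of tested genes), and as many against control (32.0% and 35.1%). With ciliobrevin D 1 rose and 4 fell (32.7% and 32.9%). The same shares of all tested genes are the background for the lists that follow. Rfx5, which with Rfxank and Rfxap drives MHC class II genes, was at 462 ± 17.0 in control and 687 ± 39.8 in Actr3 KO, where it rose (log2 0.57 ± 0.07, adjusted p = 6.6e-07). Rfx5 fell in dKO against Actr3 KO (-0.42, adjusted p = 4.2e-05). Rfx5 and Rfxap lie on chromosome 3, whose 656 tested genes had a median difference of -0.39 in that comparison. With chromosome medians removed, Rfx5 was at -0.03 (adjusted p = 0.778), and Rfxap turned from -0.16 to 0.23. Foxj3, a forkhead relative of Foxj1, rose with ciliobrevin D (0.59 ± 0.05, adjusted p = 3.5e-09), while Ankra2, the Rfxank paralog, and Foxj2 fell (-0.48 and -0.23). Rfxank fell as well (-0.27, adjusted p = 0.017), and its adjusted p was 0.107 without treated replicate 2 and 0.119 without untreated replicate 1. Foxj2 on chromosome 6 fell in dKO against control (-0.42), where the tested genes of that chromosome had a median of -0.39, and with chromosome medians removed it was at -0.05 (adjusted p = 0.573). In dKO against Actr3 KO Foxj2 fell as well (-0.36, adjusted p = 6.4e-05), where that chromosome had a median of 0.03. Over the alternatives this difference ran from -0.39 to -0.34. In Actr3 KO against control Foxj2 was at -0.06 (adjusted p = 0.410), and at 0.34 with chromosome medians removed (adjusted p = 1.5e-04).

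The factors most particular to multiciliated and nodal cells were silent or close to it. Gmnc, which acts at the top of that program, Deup1, which drives centriole amplification, and Noto, a node factor upstream of Foxj1, had no reads. Mcidas, the partner of E2F factors, had at most 7 reads in any group. Ccno, a centriole amplification gene, was at 3.54 ± 2.36 in control and 2.74 ± 3.94 in Actr3 KO. It was at 18.5 ± 5.80 in dKO and 25.0 ± 5.12 with ciliobrevin D. Ccno passed the filter only through these last groups, so no test of it is given. Myb, a multiciliation factor with wider roles in cycling cells, was at 119.1 ± 4.02 in control and 41.3 ± 6.60 in Actr3 KO, where it fell (-1.52, adjusted p = 6.4e-06), and its difference with ciliobrevin D was -0.05.

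Of the 23 upstream and Notch genes, 16 were tested. In Actr3 KO against control 4 rose and 9 fell. The Notch ligand Dll1 rose from 217 ± 27.9 to 1824 ± 72.9 (log2 3.07 ± 0.09, adjusted p = 7.0e-17) and Jag2 rose by 1.16, whereas Tfdp1, an E2F partner, fell by 0.77. In dKO against Actr3 KO 4 rose and 10 fell, with Notch2 at -1.65, Jag2 at -1.42 and Jazf1, a zinc finger gene, at -2.10. Notch2 lies on chromosome 3, whose tested genes had a median of -0.39 there, and its weakest value over the alternatives was -1.25. In dKO against control 4 rose and 11 fell, and with ciliobrevin D 5 rose and 4 fell. In these last 3 comparisons the genes that rose include Ccno, which passed the filter only through dKO and treated cells. Its place in these counts is therefore not support for a rise. With ciliobrevin D Jag1 (-1.04, adjusted p = 3.1e-11) and Dll1 (-1.02, adjusted p = 1.3e-09) were among those that fell, and Plk4, the kinase of centriole duplication, rose by 0.71. Notch signalling is known to restrain the multiciliated fate.

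Motile cilium genes were low. Of 65, 25 had a normalized count under 10 in every library, 28 failed the filter, and the median in control was 3.46 per kilobase, against 190.7 for ciliary assembly genes. With ciliobrevin D 5 of the 37 tested genes rose and 17 fell (13.5% and 45.9%, beside 32.7% and 32.9% of all tested genes), and the median log2 difference was -0.27, beside -0.02 for all tested genes. Cfap52, a protein of ciliary microtubules, fell from 79.6 ± 1.82 to 25.4 ± 4.06 (-1.62, adjusted p = 1.0e-07). Ccdc39, which sets the spacing of axonemal arms, fell by 0.92, and Stk36, a kinase tied to the central pair, fell by 0.82. Tubb4b, a tubulin of cilia and of the cytoplasm, rose by 0.29 and was at 6658 ± 32.9 in untreated Actr3 KO, above every other gene of the list per kilobase.

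In Actr3 KO against control 7 motile cilium genes rose and 11 fell (18.9% and 29.7%, beside 34.4% and 35.4% of all tested genes): Mlf1 fell by 1.22, Ropn1l by 1.07 and Tubb4b by 0.62, while Ccdc39 rose by 0.80 and Cfap52 by 1.01. In dKO against Actr3 KO 3 rose and 11 fell (8.11% and 29.7%, beside 32.5% and 33.2%). Ropn1l, of the radial spoke, was among the 3 (1.51, adjusted p = 4.0e-09), and Ccdc39 (-1.20), Dnaaf3, a dynein arm assembly factor (-1.20), and Stk36 (-0.60) were among the 11. Ccdc39 lies on chromosome 3, whose tested genes had a median of -0.39 there, and its weakest value over the alternatives was -0.81. Stk36 lies on chromosome 1, whose tested genes had a median of -0.21 in the same comparison. In dKO against control 3 rose and 16 fell (8.11% and 43.2%, beside 32.0% and 35.1%), with Dnaaf3 at -1.29, Mlf1 at -1.17 and Spef1 at -0.58. With chromosome medians removed, Mlf1 was at -0.72 in that comparison. With only genes of mean 50 or more tested, 10 of the list were called in Actr3 KO against control in place of 18, 9 in place of 14 in dKO against Actr3 KO, and 11 in place of 19 in dKO against control.

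Ciliary assembly genes were all expressed, and most were lower with ciliobrevin D. Of 43, 29 fell and 4 rose (67.4% and 9.30%, beside 32.9% and 32.7% of all tested genes), with a median log2 difference of -0.26 and 35 of 43 values below 0. Dzip1l, of the transition zone, fell from 2288 ± 92.0 to 1381 ± 70.1 (-0.73, adjusted p = 2.6e-10). Bbs1 fell from 1828 ± 44.2 to 1149 ± 63.8 (-0.67) and Ift140, of the retrograde transport complex, from 2364 ± 117 to 1524 ± 92.4 (-0.63). Ift88 fell by 0.49 in the treated cells (adjusted p = 3.5e-06). In Actr3 KO against control 20 of the list rose and 12 fell (46.5% and 27.9%, beside 34.4% and 35.4%), with a median of 0.08: Ift140 rose by 0.77 and Bbs1 by 0.64, while Arl3, a ciliary GTPase, fell by 0.83.

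In dKO against Actr3 KO 15 of the 43 rose and 11 fell (34.9% and 25.6%, beside 32.5% and 33.2% of all tested genes). Arl3 rose by 0.56, while Arl13b, a GTPase of the ciliary membrane, fell by 0.88, Dzip1l by 0.60 and Bbs1 by 0.52. In dKO against control 20 rose and 11 fell (46.5% and 25.6%, beside 32.0% and 35.1%), with Ift140 at 0.67, Ift172 at 0.60 and Arl13b at -0.87. With chromosome medians removed, Arl13b was at -0.45 against Actr3 KO and -0.51 against control. The fall with ciliobrevin D was found with and without an X-box: 7 of 11 assembly genes with the letters fell (median -0.26), and 18 of 27 without them (median -0.26). Over all tested genes with a promoter window, 37.3% of 354 genes with an X-box fell and 26.8% rose, beside 33.4% and 33.8% of the 10191 without. The difference between these shares was not tested.

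The genes with the sequences printed above show the spread. With ciliobrevin D Mks1 fell by 0.76, Tctn1 by 0.60 and Tctn2 by 0.53, and Bbs4, Bbs7 and Tmem216 by 0.26 to 0.30. Nphp4 rose by 0.30 (adjusted p = 2.4e-04). Ift22, Ift57 and B9d2 were at -0.12, 0.07 and -0.07, and none of the 3 passed the test.

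**Figure D4:**
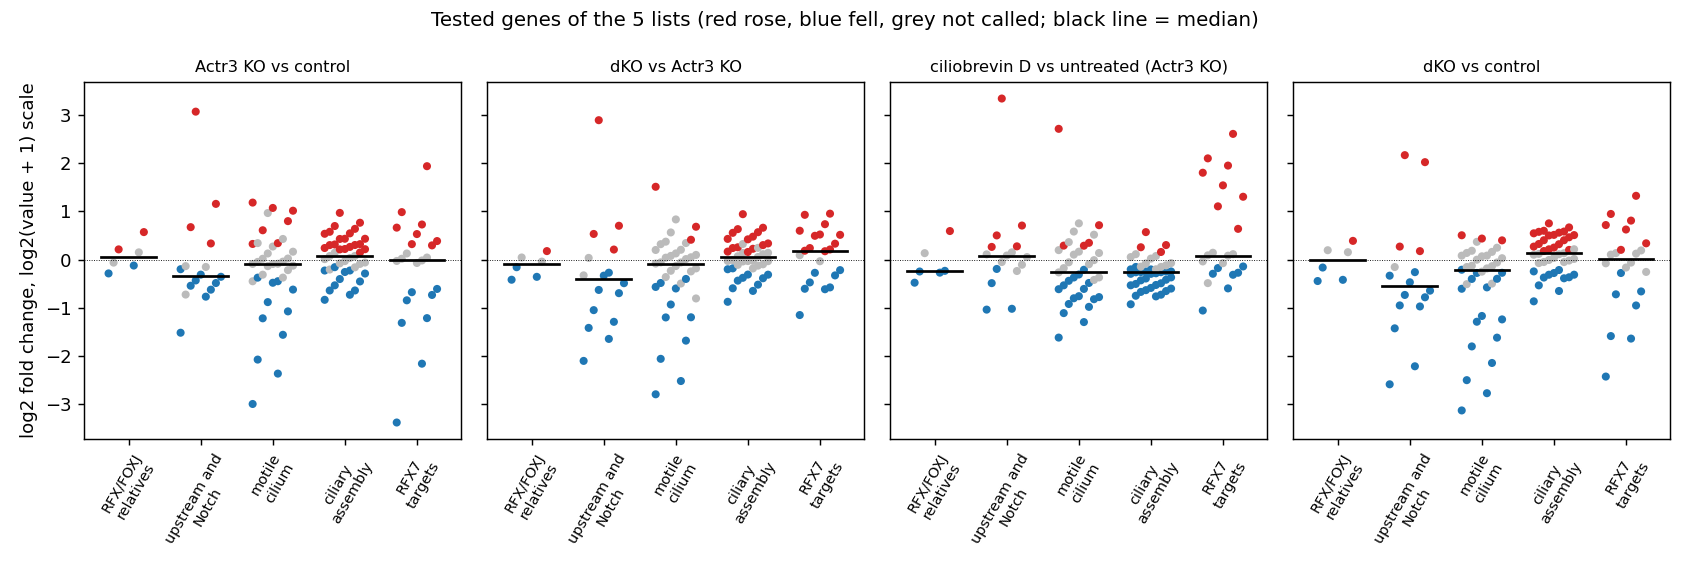
Log2 difference (vertical axis, log2(value + 1) scale) of the tested genes of 5 lists in the 4 comparisons, each point a gene, red where it rose, blue where it fell and grey where it did not pass the test, with black lines at the medians. With ciliobrevin D 29 of the 43 ciliary assembly genes are blue, with a median of -0.26.

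RFX7 target genes went both ways with ciliobrevin D, with some large rises. Of 23, 22 were tested, and 8 rose and 7 fell (36.4% and 31.8%, beside 32.7% and 32.9% of all tested genes), with a median of 0.08. Ddit4, an inhibitor of mTORC1, rose from 1720.3 ± 115 to 10505 ± 677 (2.61 ± 0.08, adjusted p = 4.8e-16). Tob1, an antiproliferative factor, rose by 2.10, and Pnrc1, a nuclear receptor coactivator, by 1.80. In Actr3 KO against control 8 rose and 8 fell (36.4% each, beside 34.4% and 35.4%). Ccnd1, a cyclin of early cell cycle, fell by 3.38 and Ddit4 by 2.16 there, while Pik3ip1, a negative regulator of PI3 kinase, rose by 1.94. In dKO against Actr3 KO 12 rose and 8 fell (54.5% and 36.4%, beside 32.5% and 33.2%), with Tspyl1 at 0.93, Ccnd1 at 0.95 and Arl15 at 0.74. With chromosome medians removed, Tspyl1 was at 0.50 there. In dKO against control 7 rose and 7 fell (31.8% each, beside 32.0% and 35.1%). Rfx7 itself was higher by 0.24 with ciliobrevin D and lower by 0.17 in dKO against Actr3 KO.

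Over the 5 lists together, 124 of 163 genes were tested. The number called was 83 in Actr3 KO against control (41 rose, 42 fell), 78 in dKO against Actr3 KO (35 and 43), 84 with ciliobrevin D (23 and 61) and 83 in dKO against control (35 and 48). Of all tested genes 69.8%, 65.7%, 65.5% and 67.1% were called in these comparisons, so the shares of the lists were close to the background. The rises counted in dKO and in treated cells include Ccno, which passed the filter only through those groups. By direction, 49.2% of the tested list genes fell with ciliobrevin D, beside 32.9% of all tested genes, and this difference was not tested.

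Cell type markers also moved between the groups. Of the 18 collecting duct and kidney epithelium markers 15 were tested: 4 rose and 7 fell with ciliobrevin D, 3 and 8 in Actr3 KO against control, 6 and 6 in dKO against Actr3 KO, and 3 and 8 in dKO against control. With ciliobrevin D they ran from Avpr2, the vasopressin receptor, which fell by 2.61, to the keratin gene Krt19, which rose by 1.65. In dKO against control they ran from the urea transporter gene Slc14a2, which fell by 4.44, to Gata3, which rose by 1.87. Their summed normalized count was 120880 to 129330 in control libraries and 83665 to 91116 in dKO. In Actr3 KO it was 93083 to 100990 untreated and 93589 to 96958 treated.

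Of the 13 markers of other cell types 6 were tested: 3 rose and 2 fell with ciliobrevin D (median 0.52), 1 and 1 in Actr3 KO against control, 1 and 3 in dKO against Actr3 KO, and 0 and 4 in dKO against control. With ciliobrevin D the log2 differences of the 6 ran from -1.75, for Umod, a thick limb gene, to 2.70. Cd68, of macrophages, rose by 1.04. The sum of this list was 10987 to 13137 in control libraries and 5612 to 6833.5 in dKO. In Actr3 KO it was 14986 to 17762 untreated and 12422 to 12924 treated, and Lrp2 made up most of it. The part of these markers in the results was not tested.

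The genes most like each member over the 12 libraries were named by Pearson's r of log2(value + 1) among 10625 genes, as a description. For Foxj1 these were Muc20, an epithelial mucin (r = 0.990), Tinag, a basement membrane protein of kidney tubules (0.987), Npr3, the natriuretic peptide clearance receptor (0.985), Rasl11b (0.984) and Gnb1l (0.983). Each was also lowest with ciliobrevin D: Npr3 was at 453 ± 64.4 against 1627 ± 124 in untreated Actr3 KO, and Muc20 at 60.2 ± 19.7 against 247 ± 1.98. For Rfx2 they were Strbp, a spermatid RNA-binding protein (0.985), Cab39l, Ado, Gak and Agbl5, a tubulin deglutamylase (0.970). Each of these was highest in dKO, as with Agbl5 at 2425 ± 102 against 1694 ± 27.8 in Actr3 KO.

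For Rfx7 the nearest genes were Usp9x (0.970), Smc5, Prr14l, Larp4b and Nemf. For Rfx1 they were Safb (0.943), Scmh1, Chuk, Ahsa2 and Ulk1, and for Rfx3 Cep135, a centriole protein (0.931), Hnrnph1, Rmi1, Slk and Chek1. The 12 points come from 4 groups that each share a line and treatment, so they are not independent.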

How the data were processed

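Per the labels' protocols, libraries came from poly(A)-selected RNA (NEBNext Ultra II kit, NovaSeq sequencer). The tools named in the submitters' processing notes are HISAT2 2.2.1, fastp 0.23.2, DESeq2 2.11.40.7 and featureCounts 2.0.1, and the builds are GRCm38 and mm10. The signal values deposited by the authors were read counts divided by 1 factor per library, since 100% of values were whole multiples of 1 step per library (within 0.01 reads). One control column fits no title by its number and entered the control group unnumbered, on its control name alone. RefSeq named 25275 of the IDs and GENCODE 18, and 1886 had no name.

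The filter kept 13939 genes that reached 10 in 3 or more libraries. limma 3.58.1 (trend, two-sided, R 4.3.3) was fitted to log2(value + 1) over all 12 libraries, with Benjamini-Hochberg adjustment over all tested genes and calls under 0.05. The labels do not say that replicates were separate cultures: the p-values describe the spread between these libraries, which differed by more than counting noise. The members and lists were chosen with earlier results of these data known. Genes were named by rule: the members, all relatives, Actr3 and Ift88, up to 3 called genes per list and comparison with the smallest adjusted p and a mean of 50 or more, and the 5 genes most like each member with a mean of 100 or more. Some genes that the rule names are not reported here. Other genes, named for their role or a printed site, were chosen after values were seen.

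In simulated data for Actr3 KO against control (13939 genes), 50 genes were changed at each fold, all of mean 50 or more. The test recovered 66% of 1.25-fold, 98% of 1.5-fold and 100% of 2-fold changes, with 8.08% of calls false. Of the real genes 69.8% were called in this comparison, so these rates do not carry over to the reported calls. They also do not cover genes of lower mean. Alternatives were other pseudocounts, filters and scalings, recovered reads in edgeR 4.0.16 and DESeq2 1.42.0, removal of chromosome medians, fits of only the groups compared, a replicate block, and each library left out.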

Additional observations from a re-analysis of the deposited data

How the results depend on the processing

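The number of genes called over the 5 lists stayed within 1.5 times in every alternative run: 74 to 87 in Actr3 KO against control, 69 to 82 in dKO against Actr3 KO, 74 to 85 with ciliobrevin D and 71 to 87 in dKO against control. Leaving out 1 library gave 75 to 81, 69 to 74, 74 to 83 and 75 to 81. Over all genes, edgeR on the recovered reads called 9856, 9236, 9143 and 9483 genes, beside 9724, 9164, 9136 and 9350 with limma. The deviations of same-numbered libraries correlated at -0.04 to 0.07, and those of all other pairs at -0.10 to 0.12, so no pairing by number was seen. The highest value was between dKO replicate 2 and the unnumbered control library, for which pairing cannot be judged without its number. With a replicate block, and without the unnumbered control library, 79 genes of the lists were called in Actr3 KO against control. Ankra2 lost its call there (adjusted p = 0.059). With chromosome medians removed, Rfxap reversed to 0.23 in dKO against Actr3 KO and to 0.0029 in dKO against control. Rfxap in dKO against Actr3 KO (adjusted p = 0.041) also lost its call with TMM rescaling, edgeR, DESeq2 or only the groups compared. The same held without Actr3 KO replicate 3, dKO replicate 1 or dKO replicate 2. The adjusted p in these runs was 0.051 to 0.198. The relatives list had 2 calls in place of 4 in dKO against Actr3 KO with chromosome medians removed, with DESeq2, without Actr3 KO replicate 3 and without dKO replicate 1. Foxj3 in Actr3 KO against control (adjusted p = 0.045) lost its call without control replicate 1, control replicate 3 or any 1 of the Actr3 KO replicates (adjusted p 0.065 to 0.197). Foxj3 lost it as well with no filter on low values, chromosome medians removed or quantile normalization (adjusted p 0.054, 0.120 and 0.341). Ankra2 in dKO against Actr3 KO (adjusted p = 0.045) lost its call under 9 alternatives: quantile normalization, chromosome medians removed, DESeq2, the replicate block, and without any 1 of the Actr3 KO replicates, dKO replicate 1 or dKO replicate 3 (adjusted p 0.057 to 0.581). Of the fold changes of named genes under alternatives, 1211 kept direction and call, 35 lost a call, 9 gained one and 2 reversed. The cause was not tested. The sign of Rfx3 between untreated lines varied around 0. Depth limits Ccno, Mcidas and the lower motile cilium genes, which rest on few reads.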
